A study of Homo sapiens with 9 samples.

Results

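The kinases of the c-Jun N-terminal kinase (JNK) arm and the MAP3K kinases above it were followed through a knockout screen with 76 single guide RNAs (sgRNAs), 4 for each of 19 genes. They are the sgRNAs that carry these gene names in a table of 3152 sgRNAs, and every one of the 76 exceeded the minimum mean of 30 reads over the 9 libraries that 3145 sgRNAs passed. RH4 is an established human rhabdomyosarcoma line that carries the PAX3::FOXO1 fusion. Cells of all groups received the Brunello kinome library by lentivirus at 1000 cells per sgRNA, followed after 48 h by 72 h of puromycin at 0.25 µg/ml. The baseline group (3 libraries) was collected then. The vehicle group (3 libraries) and the pralatrexate group (3 libraries) recovered for 72 h, and were then grown for 10 days with passage every 4 days, the latter in 1.5 nM pralatrexate, an antifolate that blocks dihydrofolate reductase. The study's main text and its methods differ on how long selection lasted, so the span between baseline and day 10 is not exact. The study speaks of triplicate cultures in one place and of technical replicates in another. The tests below therefore measure only how far these libraries spread, which may be technical. All groups are 1 cell line, grown as a pool of cells with different sgRNAs.

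In a MAPK cascade a MAP3K phosphorylates a MAP2K, which phosphorylates the MAPK. Stress and cytokine signals reach the JNK kinases through MAP2K4 and MAP2K7, and JNK then phosphorylates c-Jun and other factors that act on growth, differentiation and death. Several MAP3Ks can feed the same MAP2K, and many of these kinases have close paralogues, so that a single knockout removes 1 of several inputs. sgRNAs were counted by sequencing from genomic DNA, so reads stand for the abundance of cells with that sgRNA. An sgRNA that becomes rarer over time marks cells that grew or survived less well than the pool.

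Libraries held 2468136 to 4602712 reads, and the 76 sgRNAs took 2.23 ± 0.0267% of the baseline reads (SD, n = 3). Their share was 2.32 ± 0.0661% of vehicle reads and 2.26 ± 0.0503% of pralatrexate reads. Mean reads per library ran from 46.9 for an sgRNA of MAP3K12 to 2226 for an sgRNA of MAP3K8. Vehicle 2 stood apart for some members. Its CPM (reads scaled to library size) lay over 2-fold above or below both other vehicle libraries for 4 of the 76 sgRNAs (5.26%), against 0.477% of all sgRNAs, and no other library did so for any member. These 4 sgRNAs target MAP3K6, MAP3K9, MAP3K11 and MAP3K12, and the values of these genes are given with and without vehicle 2.

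From baseline to vehicle, which asks how cells with these sgRNAs fared without drug after selection, none of the 19 genes passed the gene test in either direction. Cells lost before baseline was collected do not show in this comparison. Whether each sgRNA cut its gene was not measured here. MAP3K4 was lowest, at a log2 fold change of −0.80 ± 0.62 (mean and SD over 4 sgRNAs), and MAP3K5 was highest, at 0.31 ± 0.21. The other 17 genes lay between −0.27 and 0.27, and the median of the 19 was 0.01 against 0.02 for all 763 genes. The gene test was a robust rank aggregation, which asks whether the sgRNAs of a gene rank nearer to one end of all sgRNAs than independent ranks would, with a false discovery rate (FDR) under 0.05. It called 6.68% of all genes depleted and 0.393% enriched. At an unadjusted p under 0.05 it took 1 member as depleted (5.26%, against 15.1% of all genes) and 2 as enriched (10.5%, against 7.86%).

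Non-targeting sgRNAs, which cut no gene, gave a further reference for these values. Their median moved by 0.31 from baseline to vehicle (SD 0.13, 99 sgRNAs), with a range from −0.05 to 0.67. Of the member sgRNAs 39.5% lay below that range, close to the 40.7% of all targeting sgRNAs, and 1.32% lay above it, against 0.394%. With libraries scaled to the non-targeting sgRNAs instead, the median over all genes went from 0.02 to −0.32 from baseline to vehicle and from 0.01 to −0.31 from baseline to pralatrexate. A value near 0 on the scale used here thus lay below the median of the non-targeting sgRNAs, in both comparisons with baseline. From baseline to pralatrexate 27.6% of the member sgRNAs lay below the non-targeting range and 0% above, against 27.7% and 0.295% of all targeting sgRNAs. From vehicle to pralatrexate, where the non-targeting median was −0.00, the shares were 2.63% and 1.32%, against 1.48% and 0.952%.

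In single sgRNAs, 5 of 76 fell from baseline to vehicle (6.58%) and 6 rose (7.89%), by edgeR at an FDR under 0.05. Over all sgRNAs the shares were 12.8% and 6.26%. With non-targeting scaling 30 members were lower and 0 higher, where that setting called 45.2% of all sgRNAs lower and 0.35% higher. DESeq2 gave 8 lower and 5 higher, and over all sgRNAs 15.2% and 10.7%. The number lower was 3 without baseline 2, and the number higher was 2, 3 and 2 without baseline 1, 2 and 3. For those fits the shares over all sgRNAs were not counted.

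MAP3K4 (MEKK4), a kinase that can activate both the JNK and the p38 arm and is bound by GADD45 proteins, was the member with the lowest value against baseline. It spans chromosome 6, 160991727 to 161117385, in GRCh38. Its level, the mean log2 CPM of its sgRNAs, was 7.82, 8.02 and 7.98 in the baseline libraries, 7.14, 7.16 and 7.13 with vehicle, and 6.93, 7.29 and 7.28 with pralatrexate. All 6 day 10 libraries lay below all 3 baseline libraries, and the vehicle and pralatrexate libraries overlapped. How often groups of 3 libraries separate over all genes was not counted, here or for the members below.

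MAP3K4 sgRNA 2 had 256, 246 and 286 CPM at baseline, 86.2, 68.7 and 97.3 with vehicle and 73.9, 97.3 and 120.4 with pralatrexate. It fell to 0.32 of baseline with vehicle (log2 fold change −1.64, SE 0.21, FDR 4.52e-07), and to 0.37 with pralatrexate (FDR 4.17e-06). MAP3K4 sgRNAs 1 and 3 fell with vehicle (−0.65 and −0.74, FDR 0.00438 and 0.0029) and with pralatrexate (−0.74 and −0.68, FDR 0.00134 and 0.00617). sgRNA 1 went from 265, 350 and 295 CPM to 199.7, 187 and 194 with vehicle and to 149, 182 and 214 with pralatrexate. sgRNA 3 went from 225, 224 and 232 CPM to 141, 142 and 126 and to 121, 157 and 148. Thus 3 of the 4 sgRNAs to MAP3K4 fell in both comparisons, which share the baseline libraries. sgRNA 4 was at −0.16 and −0.21 (FDR 0.615 and 0.477). The call on sgRNA 1 with vehicle ended without baseline 2 (−0.53, FDR 0.0597). Those on sgRNAs 2 and 3 held when any single library was omitted, 6 of 6 times in each comparison. With non-targeting scaling sgRNA 1 passed with vehicle (−0.98, FDR 1.84e-05), where 45.2% of all sgRNAs were called lower.

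As a gene, MAP3K4 ranked 60 from the lowest of 763 with vehicle (exact rank aggregation p = 0.00934, FDR 0.101) and 59 with pralatrexate (−0.77 ± 0.50, FDR 0.12). In fits that left out a library its FDR with vehicle ran from 0.0775 to 0.155, and without its strongest sgRNA it stood at −0.51 (FDR 0.524). Both tests that take 1 value per gene and library, and so give no weight to agreement between sgRNAs, called MAP3K4 lower with vehicle, limma on gene means at −0.80 (95% interval −0.99 to −0.60, FDR 1.8e-06) and edgeR on summed reads at −0.75 (FDR 6.49e-09). They called 19.8% and 21% of all genes lower. The gap to non-targeting sgRNAs was −1.11 with vehicle and −1.10 with pralatrexate. From vehicle to pralatrexate MAP3K4 was at 0.03 ± 0.14, with an interval of −0.17 to 0.22.

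Of the other MEKK kinases, MAP3K2 and MAP3K3, which act on the ERK5 arm through MAP2K5, were at −0.15 ± 0.23 and 0.04 ± 0.20 from baseline to vehicle. No sgRNA of either passed in any comparison. MAP3K1 (MEKK1), a MAP3K for MAP2K4 and MAP2K7 that also has ubiquitin ligase activity, was at 0.11 ± 0.13.

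Of the 3 JNK genes, MAPK8 and MAPK9 were above the median of all genes with vehicle and MAPK10 was not, and all 3 were below the median of the non-targeting sgRNAs. MAPK9 (JNK2) is on chromosome 5, 180233143 to 180292099, and had levels of 8.64, 8.60 and 8.56 at baseline, 8.80, 8.88 and 8.91 with vehicle and 8.85, 8.66 and 8.83 with pralatrexate. Its vehicle libraries all lay above its baseline libraries. The gene was at 0.26 ± 0.13 with 4 of 4 sgRNAs higher (exact rank aggregation p = 0.0116, FDR 0.556). How often all 4 sgRNAs of a gene go the same way was not counted over all genes, here or below.

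MAPK9 sgRNA 1 rose by 0.46 (SE 0.12, FDR 0.0049), from 408, 364 and 365 CPM at baseline to 459, 516 and 584 with vehicle, and with pralatrexate it had 453, 422 and 518. The call held in 6 of 6 fits without a library, but not with non-targeting scaling (0.12, FDR 0.398). The other sgRNAs of MAPK9 were at 0.21, 0.21 and 0.17 (FDR 0.197 to 0.349).

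MAPK8 (JNK1), the other broadly expressed JNK, had levels of 8.56, 8.45 and 8.58 at baseline, 8.79, 8.65 and 8.73 with vehicle and 8.61, 8.69 and 8.69 with pralatrexate. Its groups of baseline and vehicle libraries did not overlap either, a pattern that was not counted over all genes. The gene was at 0.19 ± 0.16 (FDR 0.685), from sgRNAs at −0.04, 0.32, 0.20 and 0.30. MAPK8 sgRNA 4 rose, from 431, 426 and 432 CPM to 543, 471 and 571 (0.30, SE 0.11, FDR 0.0453), a call that held in 1 of 6 fits without a library. It failed without baseline 1, 2 or 3 or vehicle 1 or 3 (FDR up to 0.181), and with non-targeting scaling (FDR 0.802).

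limma and edgeR on summed reads both called MAPK9 (0.26 and 0.25, FDR 0.0115 and 0.000656) and MAPK8 (0.19 each, FDR 0.0445 and 0.011) higher with vehicle. They called 9.04% and 14.4% of all genes higher. Neither was run with non-targeting scaling. Under that scaling the means over sgRNAs of MAPK9 and MAPK8 turned to −0.07 and −0.14.

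MAPK10 (JNK3), which is expressed mainly in brain and heart, was at −0.02 ± 0.25 with vehicle. Levels of MAPK10 were 8.08, 8.15 and 8.15 in the baseline libraries, 8.08, 8.16 and 8.10 with vehicle and 8.16, 8.01 and 8.01 with pralatrexate, and all groups overlapped. Its sgRNAs stood at 0.21, −0.35, −0.07 and 0.14. MAPK10 sgRNA 2 fell from baseline to pralatrexate (−0.41, SE 0.14, FDR 0.044). The call held in none of 6 fits without a library (FDR up to 0.224), with values from −0.47 to −0.32. MAPK10 sgRNA 2 passed with non-targeting scaling (−0.73, FDR 0.000186), which called 42.9% of all sgRNAs lower. That sgRNA had 284, 272 and 331 CPM at baseline, 239, 212 and 246 with vehicle and 227, 218 and 223 with pralatrexate.

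The MAP2Ks of the arm were near the median of all genes. MAP2K4, which phosphorylates JNK and p38, was at 0.01 ± 0.28 with vehicle and 0.03 ± 0.22 with pralatrexate against baseline. Baseline libraries had a MAP2K4 level of 8.13 ± 0.01 (SD, n = 3), vehicle libraries 8.14 ± 0.02 and pralatrexate libraries 8.15 ± 0.11. MAP2K7, which is selective for JNK, was at 0.07 ± 0.16 and 0.12 ± 0.23, from levels of 8.04 ± 0.10, 8.12 ± 0.12 and 8.17 ± 0.02. No sgRNA of either passed in any comparison. Across the 5 genes of the arm, 95% intervals of the change from baseline to vehicle, from limma on gene means, lay between −0.16 and 0.41. They cover the spread between libraries and not that between sgRNAs.

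In the ASK pair, MAP3K5 had 3 sgRNAs that rose in some comparison and MAP3K6 had 1 that fell. MAP3K5 (ASK1), a MAP3K that is held inactive by thioredoxin and released by oxidative stress, lies on chromosome 6, 136557046 to 136793097. Its levels were 8.08, 8.25 and 8.09 at baseline, 8.37, 8.54 and 8.44 with vehicle and 8.44, 8.37 and 8.50 with pralatrexate, so that both day 10 groups lay above baseline. It ranked 13 from the highest of 763 genes with vehicle, with 4 of 4 sgRNAs higher (exact rank aggregation p = 0.0152, FDR 0.556).

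MAP3K5 sgRNA 3 rose by 0.57 with vehicle (SE 0.16, FDR 0.0117), from 177, 174 and 176 CPM to 264, 247 and 273, and had 259, 189 and 298 with pralatrexate (0.51, FDR 0.0285). MAP3K5 sgRNA 1 rose by 0.40 and 0.38 (FDR 0.0102 and 0.0148), from 387, 446 and 381 CPM to 468, 570 and 567 with vehicle and 562, 482 and 540 with pralatrexate. sgRNAs 2 and 4 were at 0.12 and 0.15 with vehicle, and sgRNA 4 rose with pralatrexate (0.33, FDR 0.0439), from 331, 398 and 346 CPM at baseline to 455, 436 and 463. With vehicle the call on sgRNA 1 ended without baseline 1 or 3 and that on sgRNA 3 held in 6 of 6 such fits. With pralatrexate sgRNA 1 passed in 3 of 6, and sgRNAs 3 and 4 in 1 of 6 each.

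MAP3K5 stood level with non-targeting sgRNAs, at −0.00050 from their median with vehicle and −0.03 with pralatrexate. With non-targeting scaling it was at −0.02 in both, and sgRNAs 1 and 3 did not pass with vehicle (FDR 0.646 and 0.236). Nor did sgRNAs 1, 3 and 4 pass with pralatrexate under that scaling (FDR 0.67, 0.378 and 0.944). limma and edgeR on summed reads called it higher with vehicle (0.31 and 0.29, FDR 0.00419 and 0.000813).

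MAP3K6 (ASK2), which binds and activates with ASK1, was at −0.13 ± 0.26 from baseline to vehicle, or −0.02 without vehicle 2. Its levels were 8.29, 8.26 and 8.34 at baseline, 8.34, 7.87 and 8.21 with vehicle and 8.19, 7.99 and 8.30 with pralatrexate. Its sgRNAs stood at −0.39, 0.01, −0.31 and 0.16. MAP3K6 sgRNA 1 fell (FDR 0.0234), from 407, 388 and 373 CPM to 331, 258 and 302. It failed without baseline 1 or 2 or vehicle 2 (FDR up to 0.117). With non-targeting scaling it passed (−0.72, FDR 3.45e-05), where 45.2% of all sgRNAs were called lower. sgRNA 3 of MAP3K6 did not pass and had 328, 150 and 304 CPM with vehicle against 346, 282 and 339 at baseline.

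TAK1, TPL2 and NIK, 3 MAP3Ks of inflammatory signalling, showed no sgRNA past the threshold in any comparison. MAP3K7 (TAK1), which passes interleukin, TNF and TGF-β signals to IKK, JNK and p38, was at −0.08 ± 0.14 from baseline to vehicle. MAP3K8 (TPL2), which acts on the ERK arm, was at 0.03 ± 0.21. MAP3K14 (NIK), of the non-canonical NF-κB pathway, was at −0.07 ± 0.37, and its 4 sgRNAs ran from −0.42 (FDR 0.0519) to 0.45 (FDR 0.128).

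Among the mixed lineage and leucine zipper kinases, sgRNAs to the same gene went both ways. MAP3K11 (MLK3), activated by RAC1 and CDC42, had levels of 8.51, 8.57 and 8.52 at baseline, 8.17, 8.70 and 8.25 with vehicle and 8.29, 8.48 and 8.18 with pralatrexate. Vehicle 2 lay above the baseline libraries and both other vehicle libraries below them. The gene was at −0.09 ± 0.39 with vehicle (FDR 1), or −0.33 without vehicle 2 (FDR 0.371).

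MAP3K11 sgRNA 3 fell in both comparisons with baseline (−0.58 and −0.53, FDR 0.0017 and 0.00392), from 354, 394 and 331 CPM to 237, 254 and 231 with vehicle and 242, 259 and 246 with pralatrexate. The call held in 6 of 6 fits without a library in each comparison. MAP3K11 sgRNA 1 was at −0.24 with vehicle (FDR 0.125) and fell with pralatrexate (−0.32, FDR 0.034), passing in 1 of 6 such fits. With pralatrexate it passed under non-targeting scaling (−0.64, FDR 2.36e-05), which called 42.9% of all sgRNAs lower. It had 499.8, 487 and 489.7 CPM at baseline, 420.4, 411 and 423 with vehicle and 412, 399.7 and 372 with pralatrexate. sgRNA 2 was at 0.25 with vehicle. sgRNA 4 had 324, 396 and 406 CPM at baseline and 235, 824 and 223 with vehicle, so its value of 0.19 (FDR 0.706) rested on vehicle 2.

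MAP3K9 (MLK1) had levels of 8.21, 8.19 and 8.04 at baseline, 8.25, 8.73 and 8.12 with vehicle and 8.13, 8.12 and 8.18 with pralatrexate. With vehicle it was at 0.27 ± 0.41, and at 0.04 without vehicle 2. MAP3K9 sgRNA 1 rose by 0.88 (SE 0.31, FDR 0.0436), from 110, 98.9 and 70 CPM to 96.1, 301 and 114, so vehicle 1 was within the baseline range and vehicle 2 far above it, and it had 112, 79.9 and 150.5 with pralatrexate. The call ended without vehicle 2 (0.17, FDR 0.732), without baseline 1, 2 or 3, in DESeq2 (FDR 0.193) and with non-targeting scaling (FDR 0.15). The other sgRNAs to MAP3K9 were at 0.06, 0.16 and −0.03. MAP3K10 (MLK2) was at −0.05 ± 0.23 with no sgRNA past the threshold.

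MAP3K12 (DLK), known for its part in the response of neurons to axon injury, had the widest range of sgRNA values with vehicle, from −1.25 to 0.37. The lowest was sgRNA 2, which was rare from the start. It had 68, 74 and 51 reads at baseline, 43, 0 and 35 with vehicle and 56, 30 and 65 with pralatrexate. The 0 reads in vehicle 2 allow up to 0.652 CPM (3 reads, counting error only), while vehicle 1 and vehicle 3 had 13.3 and 7.93 CPM.

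Levels of MAP3K12 were 7.25, 7.36 and 7.29 at baseline, 7.29, 6.13 and 7.06 with vehicle and 7.30, 7.26 and 7.33 with pralatrexate. As a gene it was at −0.27 ± 0.69 with vehicle, −0.13 without vehicle 2, −0.47 by limma on gene means and 0.03 on summed reads, where the rare sgRNA weighs little. MAP3K12 sgRNA 1 rose with vehicle (0.37, FDR 0.032) and with pralatrexate (0.46, FDR 0.00732), from 261, 303 and 300 CPM to 393, 378 and 345 and to 430, 392 and 365. It passed in 1 of 6 fits without a library with vehicle, and in 5 of 6 with pralatrexate, failing without baseline 1 (FDR 0.0632). With non-targeting scaling it passed in neither comparison (0.03 and 0.14, FDR 0.837 and 0.383). sgRNA 3 was at −0.03 and 0.07. sgRNA 4 was at −0.16 with vehicle and fell with pralatrexate (−0.36, FDR 0.0361), a call that held in none of the 6 fits. Its values in those fits ran from −0.40 to −0.28. It passed with non-targeting scaling (−0.68, FDR 4.83e-05), which called 42.9% of all sgRNAs lower. It had 365, 426 and 362 CPM at baseline and 297, 296 and 307 with pralatrexate. MAP3K13 (LZK), the closest relative of DLK, was at 0.09 ± 0.14 with vehicle and 0.21 ± 0.11 with pralatrexate against baseline.

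From vehicle to pralatrexate, which asks whether losing a kinase changes the response to the antifolate, none of the 76 sgRNAs and none of the 19 genes passed. Gene values lay between −0.26 (MAP3K9, MAP3K1) and 0.26 (MAP3K12), with a median of −0.01 against 0.01 for all genes. edgeR called 0.0318% of all sgRNAs lower and 0% higher, and the gene test called 0.524% of genes depleted and 0% enriched. limma called 0.524% of genes lower and 0.131% higher, edgeR on summed reads 0.786% and 0.131%, and neither called a member. DESeq2 called no member sgRNA either. At an unadjusted p under 0.05 by edgeR, 3 of the 76 member sgRNAs were lower and 0 of the 76 higher, against 2.99% and 2.61% of all sgRNAs. The same threshold took 2 genes as depleted (10.5%, against 3.93% of all genes) and 0 as enriched (against 5.37%).

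The 2 genes were MAP3K1 and MAP3K9. MAP3K1 had levels of 8.46, 8.57 and 8.33 at baseline, 8.56, 8.62 and 8.54 with vehicle and 8.40, 8.21 and 8.31 with pralatrexate. All 3 pralatrexate libraries lay below all 3 vehicle libraries, a separation that was not counted over all genes. MAP3K1 was at −0.26 ± 0.13 with 4 of 4 sgRNAs lower (exact rank aggregation p = 0.00793, FDR 0.672), rank 11 from the lowest of 763 genes. Its interval by limma was −0.42 to −0.10 (FDR 0.246), and edgeR on summed reads gave an FDR of 0.056. The rank aggregation FDR was 0.179 to 0.881 in fits without a library and 0.324 with the replicate number as a block. Without its strongest sgRNA MAP3K1 was at −0.21 and did not pass.

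MAP3K1 sgRNA 2 had 492, 518 and 460 CPM with vehicle and 407, 322 and 381 with pralatrexate (−0.40, SE 0.12, FDR 0.378). From baseline, where it had 505, 546 and 449 CPM, it was at −0.03 with vehicle and fell with pralatrexate (−0.43, FDR 0.00753). That call ended without baseline 2 or pralatrexate 2 (FDR up to 0.0666). Under non-targeting scaling the fall from baseline passed (−0.75, FDR 7.8e-06), where 42.9% of all sgRNAs were called lower. sgRNA 3 was at −0.32 (FDR 0.82), sgRNA 4 at −0.21 and sgRNA 1 at −0.09 from vehicle to pralatrexate. MAP3K1 spans chromosome 5, 56815549 to 56896152.

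MAP3K9 was at −0.26 ± 0.21 with 4 of 4 sgRNAs lower (exact rank aggregation p = 0.0147, FDR 0.936). Its vehicle and pralatrexate libraries overlapped, and without vehicle 2 the value was −0.03. In the same way the value of MAP3K12, 0.26 ± 0.55, came from its rare sgRNA 2 (1.06, SE 0.78) and was −0.00 without it. It was 0.13 without vehicle 2. MAP3K11 turned from −0.11 to 0.12 without vehicle 2.

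The genes of the JNK arm were close to 0 with drug. MAPK8 was at −0.06 ± 0.05, MAPK9 at −0.08 ± 0.12, MAPK10 at −0.05 ± 0.07, MAP2K4 at 0.02 ± 0.06 and MAP2K7 at 0.05 ± 0.24. By limma on gene means their 95% intervals lay between −0.23 and 0.21, or 0.85 to 1.16 of vehicle. These cover the spread between libraries, which that fit did not pair by number, and not the spread between sgRNAs. MAP2K7 was the least even, with sgRNA 2 at −0.30 (FDR 0.82) and the other sgRNAs from 0.10 to 0.25. MAP3K5 was at −0.01 ± 0.14 and MAP3K6 at 0.01 ± 0.15, which turned to −0.10 without vehicle 2. MAP3K7 had 2 sgRNAs lower and 2 higher, from −0.27 to 0.34 and a mean of 0.03 ± 0.32. Of the rest, MAP3K2 was at 0.10 ± 0.20, MAP3K3 at −0.02 ± 0.15, MAP3K8 at −0.05 ± 0.13, MAP3K14 at −0.01 ± 0.12, MAP3K10 at 0.02 ± 0.10 and MAP3K13 at 0.12 ± 0.08. All 4 sgRNAs of MAP3K13 were higher, by 0.03 to 0.22, and none passed.

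From baseline to pralatrexate, 8 of the 76 sgRNAs fell (10.5%) and 4 rose (5.26%), where edgeR called 13.1% and 5.98% of all sgRNAs. With non-targeting scaling 28 were lower and 0 higher, where 42.9% and 0.254% of all sgRNAs were. DESeq2 gave 9 lower and 7 higher, against 14.6% and 10% of all. No gene passed, where the gene test called 7.21% of all genes depleted and 0.262% enriched, and an unadjusted p under 0.05 took MAP3K4 as depleted and MAP3K5 as enriched (5.26% each, against 14.8% and 8.78%). limma called those 2 genes (lower and higher genes were 19.9% and 9.83% of all). edgeR on summed reads called 3 members lower, MAP3K4, MAP3K1 and MAP3K11, and 3 higher, MAP3K5, MAPK9 and MAP3K13, where it called 22.8% and 16.1% of all genes. The sgRNAs that fell were 3 of MAP3K4, 2 of MAP3K11 and 1 each of MAP3K1, MAPK10 and MAP3K12, and those that rose were 3 of MAP3K5 and 1 of MAP3K12. As a gene, MAP3K5 was at 0.30 ± 0.23 (exact rank aggregation p = 0.0023, FDR 0.216). MAPK9 was at 0.18 ± 0.11, MAPK8 at 0.14 ± 0.15 and MAPK10 at −0.07 ± 0.24. MAP3K11 was at −0.21 ± 0.35, MAP3K1 at −0.14 ± 0.24 and MAP3K6 at −0.12 ± 0.12. The remaining MAP3Ks lay nearer 0, MAP3K2 at −0.05, MAP3K3 at 0.02, MAP3K7 at −0.05, MAP3K8 at −0.02, MAP3K14 at −0.08, MAP3K9 at 0.00, MAP3K10 at −0.03 and MAP3K12 at −0.00.

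Beside the members stood other kinases of the MAPK and NF-κB pathways. Of 10 other MAP3Ks, among them the RAF and TAOK kinases, of 7 MAP4Ks, 6 kinases of the ERK and ERK5 arms and 4 IKK kinases, none passed the gene test in any of the 3 comparisons. Their medians from baseline to vehicle were 0.03, 0.09, −0.15 and 0.00, against 0.02 for all genes. In the p38 arm 1 of 6 genes passed, MAPK14 (p38α), a MAPK that MAP3K4 can activate through its MAP2Ks. MAPK14 fell with vehicle and with pralatrexate against baseline (−1.58 ± 0.50 and −1.55 ± 0.52, FDR 0.00333 and 0.00349), with 4 of 4 sgRNAs lower. From vehicle to pralatrexate MAPK14 was at 0.03 ± 0.16. Of the MAP2Ks in that arm, MAP2K3 was at −0.27 ± 0.10 from baseline to vehicle (FDR 0.218) and MAP2K6 at −0.02 ± 0.19. Neither passed, nor did MAP3K4 as a gene, and a link between MAP3K4 and MAPK14 was not tested.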

How the data were processed

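The authors deposited raw read counts per sgRNA, not normalized, with Bowtie 1.0.0 named in the submitters' processing notes. The counting program is not given in the sources used here. sgRNAs are numbered within a gene in table order, and their sequences were not used here. The deposited gene tables of the authors' own comparisons (scores, p-values, log2 fold changes) were not used. Gene spans are GENCODE on GRCh38.

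sgRNAs with a mean under 30 reads were removed. All 9 libraries were fitted together in edgeR 4.0.16 (R 4.3.3, quasi-likelihood, TMM, group as the only term). Total depth was 2468136 to 4602712 reads per library. Beyond counting error, an sgRNA varied by about 13.2% between libraries of a group (edgeR common dispersion 0.0173, shared by all sgRNAs). Counting error adds to this, most for sgRNAs with few reads. The sources name no molecular identifiers, and the floor given for 0 reads (3 reads) covers counting error only. p-values were adjusted by Benjamini and Hochberg over 3145 sgRNAs or 763 genes.

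The methods name MAGeCK's rank aggregation. Here one-sided edgeR p-values were ranked over all sgRNAs, ranks with p under 0.25 were scored, and the p of the score was computed exactly for independent uniform ranks. Gene fold changes are means over sgRNAs with their SD. Alternatives were limma 3.58.1 on gene means of log2 CPM (prior count 2), edgeR on summed reads, DESeq2 1.42.0, non-targeting scaling, other filters, a fit of the compared groups alone, a replicate block and leaving out each library. The procedure was run on simulated data in which all sgRNAs of a changed gene had the same effect. How it performs where sgRNAs of a gene differ, as in members here, was not tested.

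Same-numbered vehicle and pralatrexate libraries deviated together (correlations 0.175, 0.198 and 0.188 over sgRNAs), so the numbers pair those groups, but not day 10 with baseline (−0.03 to 0.07). Within groups, a chi-square over sgRNAs was 10.7 to 25.8 per degree of freedom, so no pair agreed within sampling noise, which does not show that they came from separate cultures. Members and lists were chosen with earlier results of these data known. All 19 genes have values, and the genes given by library are those with an unadjusted gene p or a single sgRNA FDR under 0.05 in any comparison.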

Additional observations from a re-analysis of the deposited data

How the results depend on the processing

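The main counts of member sgRNAs from baseline to vehicle, 5 lower and 6 higher, became 30 and 0 with non-targeting scaling (45.2% and 0.35% of all sgRNAs), and 8 were lower in DESeq2 (15.2% of all). From baseline to pralatrexate 8 lower and 4 higher became 28 and 0 with non-targeting scaling (42.9% and 0.254% of all), and 7 were higher in DESeq2 (10% of all). When 1 library was left out, numbers ran from 3 to 6 lower and 2 to 5 higher with vehicle, and from 4 to 7 lower and 1 to 3 higher with pralatrexate. With pralatrexate the number lower was 5, 4, 5, 4 and 5 without baseline 1, 2 or 3 or pralatrexate 2 or 3, and the number higher was 1 without baseline 1, baseline 3 or pralatrexate 1. Shares over all sgRNAs were not counted for fits without a library or for the replicate block. Member genes called numbered 0 in every comparison by rank aggregation, also under each alternative of scaling, filter, samples and replicate block. From baseline to vehicle they numbered 4 in limma and 4 in edgeR on summed reads, and from baseline to pralatrexate 2 and 6, in tests that take 1 value per gene and library. Over all genes with vehicle, limma called 19.8% lower and 9.04% higher, and edgeR on summed reads 21% and 14.4%. With pralatrexate limma called 19.9% and 9.83% of all genes, and edgeR on summed reads 22.8% and 16.1%. Of 855 gene values under alternatives 16 passed the threshold, all in limma or on summed reads, none was reversed, and 97 values of genes not called changed sign, 20 of them with non-targeting scaling. With the replicate number as a block, 6 member sgRNAs were lower and 6 higher from baseline to vehicle, 8 and 5 from baseline to pralatrexate and 0 and 0 from vehicle to pralatrexate, and no gene call changed. The cause of these differences was not tested, beyond the shift that non-targeting scaling applies to all sgRNAs alike. MAP3K12 sgRNA 2 had the fewest reads of the members, 46.9 on average, and an SE of 0.77 from baseline to vehicle against 0.11 to 0.33 for the other members, in which the part of depth was not tested.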
